A study of Mus musculus with 8 samples.

Results

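ASH2L sites on mouse chromosome 7 were taken from a list of positions that were bound by ASH2L in iMEF cells. The list held 6444 sites over all chromosomes (build mm10), and all 301 sites with chromosome 7 as their position were kept, against 6012 on the other 18 autosomes. They were chosen from measured positions, and a low share of bound promoters on this chromosome was already known when they were chosen. That share is therefore described without a test, and the question asked of the data is where along the chromosome it lies.

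The sites came from chromatin immunoprecipitation and sequencing (ChIP-seq) with antibodies against HA, in 4 groups of 2 libraries each. These were ASH2L precipitates and matching inputs without dTAG, and precipitates and inputs from cells treated for 1 h with dTAG, a molecule that directs FKBP-tagged proteins to degradation. All groups were iMEF, an immortalised mouse embryo fibroblast line, in which floxed Ash2l alleles had been recombined through Cre-ER and a lentivirally delivered human ASH2L with FKBP and HA tags (FKBP-HA2-ASH2L) was expressed instead, so the untreated cells also lack the mouse protein and the bound ASH2L is human. The study worked mainly with 1 clone of such cells. The list joins all samples and holds a chromosome, a start and an end per site, with no signal per library, so the depth of the libraries, a replicate error and an effect of dTAG cannot be given here, and fibroblast markers could not be checked.

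ASH2L is a core subunit of the COMPASS complexes, in which KMT2 enzymes methylate lysine 4 of histone H3. Subunits of several of these complexes carry CXXC domains that bind unmethylated CpG dinucleotides, and CpG islands, the CpG-rich stretches at most promoters of broadly used genes, are their best known place of action. In the mouse, chromosome 7 is also known for large tandem families of receptor, zinc finger and kallikrein genes and for imprinted clusters.

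To show promoters with and without ASH2L, the stretches just upstream of 4 gene starts are given below, with CpG dinucleotides in capitals. They are reference sequence from RefSeq (GRCm38.p6), 5′ to 3′ on the strand of the gene, limited to at most 250 bases and to bases outside annotated exons. Rps3, for a protein of the small ribosomal subunit, and Ndufc2, for a subunit of respiratory complex I, had an ASH2L site within 1 kb of a TSS, downstream of the stretch shown for Rps3 and across its end for Ndufc2. Rps16, also for a small subunit protein, and Kat8, for a histone acetyltransferase, had none.
Rps3 (chr7:99483739-99483959, minus strand): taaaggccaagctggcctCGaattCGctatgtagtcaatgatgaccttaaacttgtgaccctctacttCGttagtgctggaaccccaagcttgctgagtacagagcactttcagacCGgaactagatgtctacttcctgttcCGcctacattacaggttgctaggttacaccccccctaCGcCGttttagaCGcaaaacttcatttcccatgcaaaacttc
Rps16 (chr7:28350439-28350651, plus strand): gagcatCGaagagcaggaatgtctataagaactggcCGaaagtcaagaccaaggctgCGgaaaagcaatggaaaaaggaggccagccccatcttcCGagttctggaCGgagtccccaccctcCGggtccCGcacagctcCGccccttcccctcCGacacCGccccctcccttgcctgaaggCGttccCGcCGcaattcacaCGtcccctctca
Ndufc2 (chr7:97399753-97400002, plus strand): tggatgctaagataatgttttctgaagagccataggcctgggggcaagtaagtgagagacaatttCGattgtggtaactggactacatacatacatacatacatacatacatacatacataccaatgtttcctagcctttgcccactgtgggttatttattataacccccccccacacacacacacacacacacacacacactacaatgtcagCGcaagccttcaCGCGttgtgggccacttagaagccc
Kat8 (chr7:127912267-127912515, plus strand): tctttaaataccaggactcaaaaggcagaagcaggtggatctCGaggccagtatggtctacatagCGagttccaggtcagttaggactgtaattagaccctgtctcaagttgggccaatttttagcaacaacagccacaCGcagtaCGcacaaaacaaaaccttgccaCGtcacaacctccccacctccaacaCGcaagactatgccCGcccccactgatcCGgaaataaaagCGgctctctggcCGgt
The count of CpGs in these stretches was 8 in 221 bases for Rps3 and 4 in 250 bases for Ndufc2. It was 14 in 213 bases for Rps16 and 10 in 249 bases for Kat8, so in these 4 examples the unbound starts held more CpGs upstream than the bound ones. Across all genes of chromosome 7 with a CpG island it was the other way. The share with a site rose from 6.25% to 25.6% with the number of CpGs in the 1 kb around the gene start.

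The second set of sequences shows distal sites, those centred farther than 3 kb from every transcription start site (TSS). The motif of AP-1, the factor formed by Fos and Jun proteins, is in capitals (TGAGTCA, searched on both strands and therefore also seen as TGACTCA). All are given on the plus strand and span the whole site.
Site near Lsm14a, intergenic (chr7:34342245-34342444): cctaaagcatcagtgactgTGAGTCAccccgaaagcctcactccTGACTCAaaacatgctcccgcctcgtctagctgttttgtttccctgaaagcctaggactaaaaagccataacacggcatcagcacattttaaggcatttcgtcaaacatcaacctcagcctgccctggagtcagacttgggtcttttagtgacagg
Site in an intron of St5 (chr7:109546788-109547015): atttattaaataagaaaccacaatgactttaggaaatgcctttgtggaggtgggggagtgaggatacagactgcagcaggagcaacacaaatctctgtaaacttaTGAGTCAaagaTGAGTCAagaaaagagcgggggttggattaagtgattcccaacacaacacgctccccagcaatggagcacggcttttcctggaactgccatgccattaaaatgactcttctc
Site near Mef2a, intergenic (chr7:67390885-67391125): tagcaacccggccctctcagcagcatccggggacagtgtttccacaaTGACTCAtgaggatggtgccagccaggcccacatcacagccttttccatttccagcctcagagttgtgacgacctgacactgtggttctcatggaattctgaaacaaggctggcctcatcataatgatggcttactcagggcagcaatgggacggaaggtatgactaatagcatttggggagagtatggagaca
Site near Adam12, intergenic (chr7:134237478-134237677): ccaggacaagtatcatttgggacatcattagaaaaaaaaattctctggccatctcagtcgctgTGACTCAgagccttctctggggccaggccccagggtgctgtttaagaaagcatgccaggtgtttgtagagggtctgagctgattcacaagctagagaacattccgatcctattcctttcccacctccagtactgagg
The sites near Lsm14a and in St5 had 2 matches each and the others 1, and none of the 4 sites had more than 5 CpGs.

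Each site was placed by its centre. On chromosome 7, 168 sites were promoter sites, centred within 1 kb of a TSS of any gene, 34 were flanking sites between 1 and 3 kb, and 99 were distal. The promoter share of 55.8% (Wilson 95% interval 50.2 to 61.3%) stood beside 52.9% on the other autosomes. Per Mb, chromosome 7 had 1.16 promoter sites against 1.37, and 0.681 distal sites against 0.953. The latter average is raised by chromosomes 10 and 15, with 1.77 and 2.36 distal sites per Mb. Without them it was 0.832, just above the exact Poisson 95% interval of chromosome 7 (0.553 to 0.829). Its distal density was the lowest of 19 autosomes but for chromosomes 12 and 14 (0.658 and 0.665 per Mb), and both kinds of site were sparser per Mb than on the other autosomes together. The farthest promoter site lay 979 bp from its TSS and the nearest flanking site 1032 bp. For the other limit the values just inside and outside were 2976 and 3029 bp.

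Of the 168 promoter sites, 156 lay within 1 kb of a TSS of a protein-coding gene, 16 of them at 2 or more such genes, and 12 only at noncoding genes. Counted by gene, 145 of 2023 protein-coding genes on chromosome 7 had a promoter site, a share of 7.17% against 15.5% on the other autosomes and 14.0% over all 21 chromosomes. CpG islands were computed from the sequence, and 61.1% of the protein-coding genes of chromosome 7 had an island within 1 kb of a TSS against 75.6% elsewhere. Restricted to these CpG island genes, 144 of 1237 had a site, which is 11.6% (9.97 to 13.5%). On the other autosomes it was 2893 of 14209, or 20.4% (19.7 to 21.0%), and over all 21 chromosomes 19.0%. With any base of a site within 1 kb of a TSS, in place of its centre, 148 genes of chromosome 7 would count, the additional 4 being Arhgef17, Ebf3, Fgfr2 and Pik3c2a. Of 786 genes without an island 1 had a site, the sperm fusion gene Izumo1.

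The share was then followed in 5-Mb bins from the centromeric end. Of 30 bins, 27 held at least 10 CpG island genes. In 20 of them the share was below the 20.4% of the other autosomes, and in 7 it was above. With the same reference, 189 of 391 bins on the other autosomes (48.3%) were below. The median over bins was 12.5% on chromosome 7, with a range from 3.33 to 46.7%, and 20.5% on the other autosomes, with quartiles of 14.8 and 29.7%. On chromosome 7, 15 bins lay under that lower quartile and 5 above the upper one. In 10 of the 27 bins the Wilson upper bound was itself below 20.4%, as it was in 19 of the 391 other bins (4.86%). The low share was therefore found in most bins but not in all, and its size differed widely between them.

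**Figure D1:**
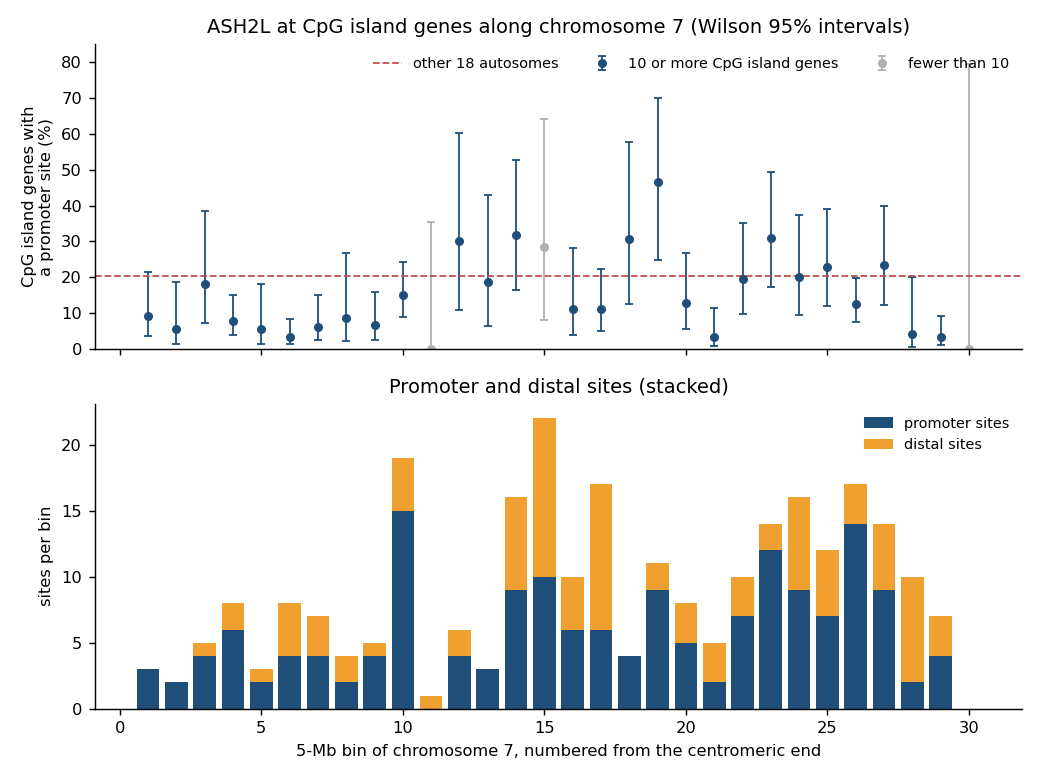
Upper panel, share of CpG island genes with a promoter site (percent) in each 5-Mb bin of chromosome 7, numbered from the centromeric end, with Wilson 95% intervals, and the share of the other 18 autosomes (20.4%) as a dashed line. Lower panel, promoter and distal sites per bin, stacked. The first 10 bins all lie below the line, and the most distal sites in a bin are 12, in bin 15.

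All of the first 10 bins, which reach to 50 Mb, were below the reference, with shares from 3.39 to 18.2%. The lowest of these, at 25 to 30 Mb, had sites at 4 of 118 CpG island genes, namely Hnrnpul1, an RNA-binding protein, Ltbp4, which binds latent TGF-beta, and the zinc finger genes Zfp607a and Zfp84. The sites of Ltbp4 and Zfp607a lay in introns outside a CpG island, near a TSS other than the gene start. At 15 to 20 Mb 7 of 90 genes had a site, among them Ercc1 of nucleotide excision repair, Nop53 of ribosome biogenesis and Gemin7 of the SMN complex. At 140 to 145 Mb, near the other end, it was 3 of 90, namely Mtg1, a mitochondrial GTPase, Phrf1 and Mob2. At 100 to 105 Mb 2 of 59 genes had a site, Mrpl48 of the mitochondrial ribosome and Numa1 of the mitotic spindle.

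The highest share was at 90 to 95 Mb, where 7 of 15 genes had a site, 46.7% (24.8 to 69.9%). This was the 1 bin whose lower bound was above the reference. The genes were Picalm, a clathrin adaptor, Crebzf, Tmem126b of complex I assembly, Dlg2, Ccdc90b, Ankrd42 and Rab30, a Golgi GTPase. Tmem126b and Dlg2 were counted from the same site (chr7:90475704-90475931). The lower bound with this site counted for a single gene was not computed. Rab30 alone had 4 promoter sites within 1.82 kb. At 65 to 70 Mb 7 of 22 genes had a site (31.8%) and at 110 to 115 Mb 9 of 29 (31.0%). The most CpG island genes with a site in a bin were 14 of 112 at 125 to 130 Mb, including Setd1a, which encodes a KMT2-family methyltransferase, Maz and Eif3c of the translation initiation factor. Even there the share was 12.5% (7.59 to 19.9%).

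Divided into 3 equal parts, the chromosome showed the lowest share near the centromere. The centromeric part, 0 to 48.5 Mb, had a site at 46 of 569 CpG island genes (8.08%, interval 6.12 to 10.6%). In the middle part it was 35 of 181 (19.3%, 14.2 to 25.7%), an interval that includes the 20.4% of the other autosomes. In the telomeric part it was 63 of 487 (12.9%, 10.2 to 16.2%). Distal sites were also unevenly spread, with 16 in the centromeric part (0.330 per Mb), 42 in the middle (0.866 per Mb) and 41 in the telomeric part (0.846 per Mb). Promoter sites numbered 46 in the centromeric, 51 in the middle and 71 in the telomeric part. The centromeric part was thus lowest in the share at CpG island genes and in distal sites. The telomeric part was low in that share, with a density of distal sites close to that of the middle.

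The number of genes missing from the count can be expressed against the reference. At 20.4%, 251.9 of the 1237 CpG island genes would have had a site, which is 107.9 more than the 144 observed. The shortfall was 69.0 genes when the expectation took regional GC content into account, and 45.2 genes with GC content and CpG number together. The 3 bins with the largest shortfall, at 15 to 20, 25 to 30 and 140 to 145 Mb, held 43.3% of the 107.9 with 24.1% of the genes. Outside these 3 bins 130 of 939 genes had a site, 13.8% (11.8 to 16.2%), still below the other autosomes. These bins were picked by their shortfall, so the last value is the share that remains once the most extreme bins are set aside. Which bins lead depends on the reference. With an expectation from the GC content around each gene (5 classes, described with the base composition), the shortfall at 15 to 20 Mb was 4.34 genes in place of 11.3, and the largest were 12.5 genes at 25 to 30 Mb, 11.3 at 100 to 105 Mb and 8.33 at 140 to 145 Mb. Of the first 10 bins, that at 45 to 50 Mb was above this expectation, with 13 genes against 11.7. With GC content and CpG number together, 10 to 15 Mb (4 against 3.44) and 45 to 50 Mb (13 against 9.77) were above.

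Unbound CpG island genes lay in long stretches. The longest run of neighbouring CpG island genes without a site had 54 genes, from Zfp974 to Catsperg2 over 1.80 Mb. It was followed by 47 genes from Polr2i to Wtip over 3.90 Mb and 45 genes from Apoc2 to Dmrtc2 over 5.19 Mb. All 3 were in the centromeric part. On chromosome 7 there were 9 runs of 30 or more genes, which held 358 genes (28.9% of its CpG island genes). The other 18 autosomes had 21 such runs with 819 genes (5.76%). Long runs become likelier where the share is low, and that was not separated here.

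Gene-dense bins tended to have low shares. Across the 27 bins of chromosome 7, Spearman's rho between the share and the number of CpG island genes in the bin was -0.64, and between the share and the GC content of the bin -0.42. Over the 391 bins of the other autosomes the same values were -0.32 and -0.33. Neighbouring bins share sequence composition and gene families, and these values are descriptions. In bins with 50 or more CpG island genes, chromosome 7 had 57 of 733 genes with a site (7.78%), with a median over 9 bins of 6.67% and a highest bin of 15.1%. The 81 such bins of the other autosomes had a median of 16.0% and a range from 6.41 to 37.1%, so 4 of the 9 bins of chromosome 7 were below all 81. In bins with fewer genes the pooled share was 17.4% on chromosome 7 and 23.5% elsewhere. Low shares were not confined to dense bins. Of the 11 bins of chromosome 7 under 10%, 6 held 50 or more CpG island genes. Among bins with fewer genes the lowest share was 4.17%, at 135 to 140 Mb with 24 genes.

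Base composition moved with the share. Genes were divided into 5 classes by the GC content of the 100 kb around their start. On the other autosomes the share fell from 29.7% in the class lowest in GC to 11.5% in the highest. Chromosome 7 had 32.7% of its CpG island genes in the highest class against 18.9% elsewhere. Within each class its share was still the lower one, with 19.1% against 29.7% in the lowest class, 18.2 against 26.9%, 13.5 against 19.8%, 9.94 against 12.5%, and 6.93 against 11.5% in the highest. With the class shares of the other autosomes, 17.2% of the chromosome 7 genes would have had a site, so the difference of -8.72 percentage points from the other autosomes became -5.58. When the classes of GC content were crossed with 5 classes of CpG number in the 1 kb around the start, the expected share was 15.3% and the difference -3.65 points. CpG number was taken at the outermost annotated start of each gene, whereas islands and sites were counted at any TSS.

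**Figure D2:**
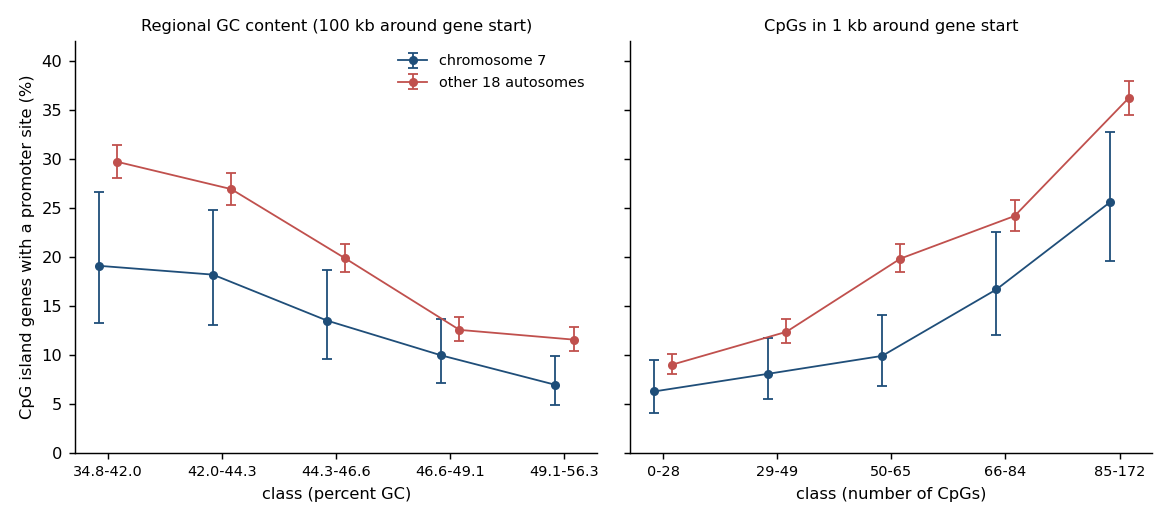
Share of CpG island genes with a promoter site (percent, Wilson 95% intervals) in 5 classes of regional GC content and 5 classes of CpG number around the gene start, for chromosome 7 and the other 18 autosomes. Chromosome 7 lies below the other autosomes in every class, for example at 6.93 against 11.5% in the highest GC class.

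With CpG number the share moved the other way. It rose with the number of CpGs in 1 kb, on chromosome 7 from 6.25% to 25.6% and on the other autosomes from 8.99% to 36.2% between the lowest and the highest class. Chromosome 7 was below in each of the 5 classes, and the middle class, with 50 to 65 CpGs, showed 9.89 against 19.8%. The same held for the 5 classes of island length, of neighbouring CpG island genes within 500 kb and of annotated TSSs per gene. Island length, like CpG number, was taken at the outermost gene start. The lowest classes therefore include genes with a site at another TSS, such as Trim28, with 6 CpGs and no island at that start. Genes with a divergent partner had a site in 17.8% of cases on chromosome 7 and 31.0% elsewhere, and genes without one in 9.33% and 17.0%. The part of GC content, CpG number and gene density in the low share was not tested.

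For the 3 equal parts of the chromosome, the expectation from GC classes was 14.7% for the centromeric, 22.6% for the middle and 18.2% for the telomeric part. The observed shares were 8.08%, 19.3% and 12.9%, so the middle part was closest to its expectation. Expectations from GC classes were also computed for each autosome with the class shares of all autosomes other than chromosome 7. The observed share minus the expected was -5.58 points on chromosome 7, the lowest of 19, followed by -3.80 points on chromosome 14. The highest was 3.86 points on chromosome 15. Chromosomes 11 and 17, with expectations of 17.3% and 17.5%, had observed shares of 16.6% and 15.6%.

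**Figure D3:**
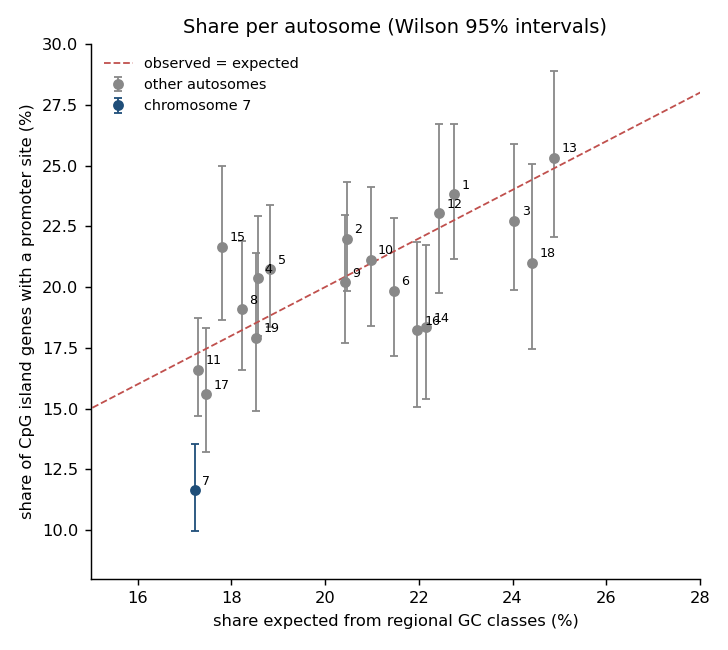
Observed share of CpG island genes with a promoter site (percent, Wilson 95% intervals) against the share expected from regional GC classes, 1 point per autosome, with a dashed line where both are equal. Chromosome 7 lies at 11.6% observed and 17.2% expected.

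The genes were also grouped by function, and the share of each list is read against the 11.6% of all CpG island genes of the chromosome. Of 14 cytosolic ribosomal protein genes 9 had a site (64.3%, 38.8 to 83.7%), among them Rps9, Rps19, Rpl13a, Rpl18, Rps3, Rpl27a and Rps15a, and those without included Rpl28, Rps16, Rps13 and Rplp2. On the other autosomes it was 50 of 66 (75.8%). The site of Rps9 (chr7:3704617-3704893) was centred 391 bp downstream of a TSS and that of Rps3 (chr7:99483378-99483624) 133 bp downstream. The list had the highest share of those compared on chromosome 7. On the other autosomes it was highest among the lists counted there. The imprinted, cell cycle, chromatin, growth and transcription factor lists were not counted there. Of 6 mitochondrial ribosomal protein genes 1 had a site (Mrpl48), of 9 oxidative phosphorylation genes 2 (Ndufc2 and Uqcrc2) and of 4 proteasome genes 1 (Psma1). The corresponding shares on the other autosomes were 43.1%, 40.0% and 34.9%. With so few members the intervals on chromosome 7 include them (3.01 to 56.4%, 6.32 to 54.7% and 4.56 to 69.9%).

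The list of chromatin regulators had a site at 7 of 24 CpG island genes (29.2%, 14.9 to 49.2%). The 7 were Trim28, the corepressor of KRAB zinc finger proteins, Zbtb45, the remodeller Chd2, Setd1a, the corepressor Ctbp2, Tead1, a DNA-binding partner of YAP that is also in the list of transcription factors, and Smg1, a kinase of nonsense-mediated decay. The last 2 are not chromatin regulators in the strict sense, and neither are some members without a site, such as the kinase Brsk1, the ESCRT subunit Chmp2a and the SUMO-activating subunit Sae1, so the share is that of a loosely drawn list. The site of Setd1a (chr7:127776879-127777702) spanned 824 bp with a GC content of 72.3%. Genes of this list with no site included Kmt2b, which encodes another H3 lysine 4 methyltransferase, the Polycomb subunit Eed, the arginine methyltransferase Prmt1 and Kat8. Of 25 cell cycle and DNA repair genes 4 had a site (16.0%, 6.40 to 34.7%, an interval that includes the 11.6% of all CpG island genes), namely Ercc1, Tubgcp5, Bccip and Mki67, which encodes the proliferation marker Ki-67 and had 2 sites. Ccnd1, Plk1, Wee1, Rrm1 and Blm were among the 21 without.

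**Figure D4:**
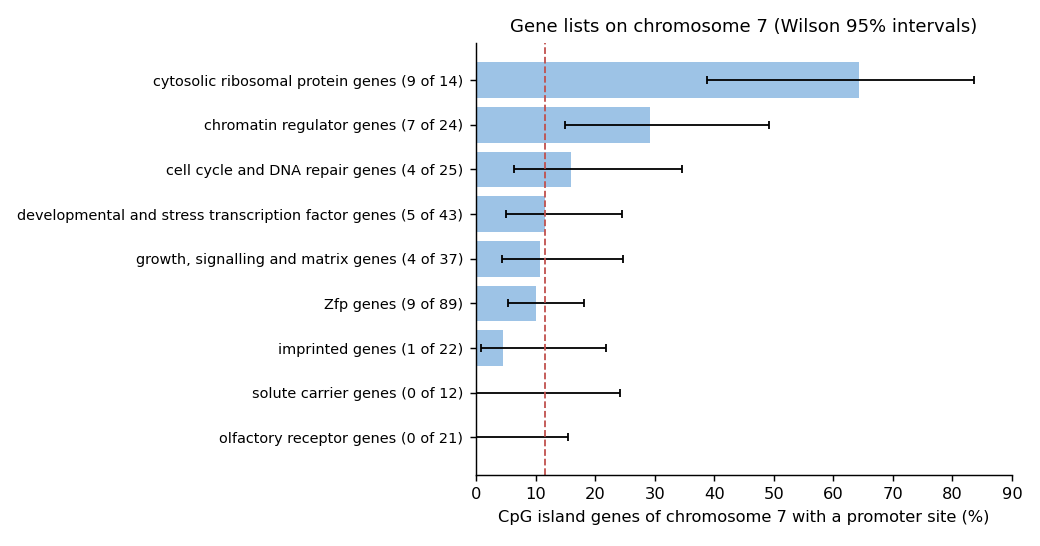
Share of CpG island genes of chromosome 7 with a promoter site (percent) in the gene lists with at least 10 such members, with Wilson 95% intervals and the counts beside each name. The dashed line is the share of all CpG island genes of the chromosome, 11.6%, and cytosolic ribosomal protein genes lie highest at 64.3%.

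Of 37 CpG island genes for growth factors, signalling and matrix, 4 had a site (10.8%, 4.29 to 24.7%), close to the 11.6% of all CpG island genes. They were Ltbp4, the receptor gene Igf1r, the kinase gene Ilk and the GTPase gene Rras2. Tgfb1, Axl and Serpinh1, the collagen chaperone, had none. Among 43 developmental and stress transcription factor genes 5 had a site (11.6%, 5.07 to 24.5%), the share of all CpG island genes of the chromosome. The list also holds genes that are not transcription factors and had no site, such as Otud7a, which encodes a deubiquitinase, Plekhb1 and Insc. Those with a site were Mef2a, Nr2f2, Tead1, Sox6 and Maz, and Cebpa, Relb, Fosb and Myod1 had none. Of 22 imprinted genes with a CpG island 1 had a site (4.55%, 0.807 to 21.8%, an interval that includes 11.6%). It was Ube3a, a ubiquitin ligase gene, with 2 sites. Igf2, Cdkn1c, Kcnq1, Snrpn and Peg3 had none within 1 kb of a TSS. Distal sites lay in introns of Kcnq1 at chr7:143113150-143113411 and chr7:143368240-143368616.

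Tandem families were a large part of the genes but a small part of the CpG island genes. None of 236 olfactory receptor genes and none of 154 vomeronasal receptor genes had a site, which allows shares of up to 1.27% and 1.95%, beside 7.17% of all protein-coding genes of the chromosome and 0.127% of those without a CpG island. None of 26 kallikrein and 28 Psg and Ceacam genes had one either, with limits of 11.5% and 10.7%. Only 21 of the olfactory and 7 of the vomeronasal receptor genes had a CpG island, and over these the limits are 14.3% and 42.9%, which include the 11.6% of all CpG island genes. On the other autosomes none of 58 and 5 such genes had a site. Zinc finger genes named Zfp had a site at 9 of 89 CpG island genes (10.1%, 5.41 to 18.1%) against 22.7% on the other autosomes. Together the families held 536 genes and 123 CpG island genes, and among the 1114 CpG island genes outside them the share was 12.1%. None of 12 solute carrier genes with a CpG island had a site, which allows up to 25% and so includes the 10.2% found elsewhere.

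Promoter sites were compared in width and sequence with those of the other autosomes. They had a median width of 281 bp (quartiles 227.75 and 379.75 bp) against 305 bp (231 and 426 bp), and the 95% interval of the median from order statistics, 265 to 312 bp, includes the latter. Only chromosome 19, at 278.5 bp, had a smaller median of the 19 autosomes. The smallest width of the list, 200 bp, was found in 13.1% (8.81 to 19.0%) against 9.59%. The median GC content was 63.1% against 66.0% and the CpG density 8.13 against 9.35 per 100 bp. In total 86.9% lay in a CpG island (81.0 to 91.2%), against 89.2%. Of 167 promoter sites with a direction, 64.1% (56.6 to 71.0%) were centred downstream of the nearest TSS, against 66.8%. The ETS motif CCGGAAGT occurred, on either strand, in 200-bp windows at 4.76% of promoter sites against 5.31% on the other autosomes and 0.119% of all windows tiled along chromosome 7. Windows at the starts of all 1237 CpG island genes of the chromosome held it in 6.39% of cases, a value for another position, since the windows of the sites lie at the site centre. For the SP/KLF motif CCCCGCCCC the shares were 3.57% at promoter sites, 5.50% on the other autosomes, 0.393% of tiled windows and 13.7% of CpG island gene starts. The intervals of the minimum width, island and downstream shares include the values of the other autosomes. No interval was computed for GC content and CpG density.

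The widest site of the chromosome lay at the start of Ebf3, which encodes an early B cell factor (chr7:137308336-137314501). It spanned 6166 bp and covered the annotated gene start at 137314445, but its centre was in an intron, 2498 bp from the nearest TSS, so that Ebf3 does not count as a gene with a promoter site. Together with 3 distal sites it formed a cluster of 9.44 kb. The middle 200 bases of this site are shown with CpGs in capitals, since its centre was not at a promoter.
Ebf3 intron (chr7:137311319-137311518, plus strand): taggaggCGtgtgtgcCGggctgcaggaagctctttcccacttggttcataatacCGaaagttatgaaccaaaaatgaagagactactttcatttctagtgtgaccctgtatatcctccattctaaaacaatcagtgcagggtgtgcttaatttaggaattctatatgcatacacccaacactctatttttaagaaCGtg
This stretch had 4 CpGs and a GC content of 41.0%, against 55.8% for the whole site.

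At 70 to 75 Mb, 29 sites lay in a bin with 7 CpG island genes, 10 of them promoter, 7 flanking and 12 distal sites. Of these, 13 sites formed a cluster of 16.0 kb over Nr2f2, which encodes the nuclear receptor COUP-TFII, and covered 8023 bp of it. The widest there (chr7:70358824-70361828) spanned 3005 bp. A second cluster of 5 sites within 10.0 kb lay around the noncoding gene Gm44734. Between these, Chd2 had a site of 200 bp (chr7:73541492-73541691), and a site of 1498 bp (chr7:73557033-73558530) lay at the noncoding gene 1810026B05Rik. The 10 promoter sites of this bin lay at 2 of its 7 CpG island genes, Nr2f2 and Chd2, and at noncoding genes. Of the 301 sites, 5 were wider than 1 kb. Besides those at Ebf3, Nr2f2, 1810026B05Rik and near Gm44734, the remaining one was at Crebzf (chr7:90442811-90444577) and spanned 1767 bp.

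Between the number of distal sites per Mb and the share at CpG island genes, Spearman's rho was 0.020 over 27 bins of chromosome 7 and 0.11 over 391 bins of the other autosomes, which describes these bins only. Their median number per bin was 3, against 4 on the other autosomes with quartiles of 2 and 6. The most were found at 70 to 75 Mb (12), at 80 to 85 Mb (11) and at 135 to 140 Mb (8), and 5 bins had none. At 80 to 85 Mb they were spread over introns of Adamtsl3, Efl1, Cemip, Arnt2, Cpeb1 and Gm2115, and intergenic positions. Of the 99 distal sites, 48.5% were intronic and 46.5% intergenic, against 48.5% and 47.4% elsewhere, and 5 lay in a CpG island. Their median width was 226 bp against 228 bp. They lay closer to TSSs, at a median distance of 12420 bp (quartiles 6121 and 21783 bp) against 16646 bp (7785 and 37075 bp), a difference that was not tested. The farthest (chr7:35986537-35986768) was intergenic and 110726 bp from the nearest TSS.

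The AP-1 motif was found in 10 of the 99 distal sites, 10.1% (5.58 to 17.6%), in windows of 200 bp at the site centre, against 12.1% on the other autosomes. Among all windows of that length on chromosome 7 it was 3.14%. At promoter sites it was 0.595% against 2.23%. Beside the 4 sites whose sequences are given above, the sites with a match lay in introns of Acp7, Tjp1, Adamtsl3, Cemip, 1810026B05Rik and the noncoding gene Gm45846. Tjp1 encodes a tight junction protein, and Cemip a hyaluronan-degrading protein. The interval of the AP-1 share includes the value of the other autosomes, so a difference in motif share was not detectable at this number of sites.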

How the data were processed

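ASH2L ChIP-seq libraries and their inputs (8 libraries, 4 groups of 2) were trimmed, aligned to mm10 with BWA and filtered with SAMtools by the authors, who combined replicates (Picard) and called peaks in narrow mode (MACS2). Versions are not given in the sources used here. The deposited table lists site positions (chromosome, start and end), the union over all samples per the study, with no count, signal or score, so strength, replicates and dTAG could not be compared from it and libraries could not be checked for depth or batches. The study also provides a list of sites changed after 1 h of dTAG, which was not used here. It reported a considerable loss of signal at essentially all sites by then.

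The members and gene lists were chosen with earlier results of these data known. Starts were read as 0-based and are printed 1-based. The TSSs of GENCODE release 21 for mouse were used, which precedes the release named in the study, with sequence from GRCm38.p6. CpG islands were stretches of at least 200 bp with over 50% GC in which observed CpGs exceeded 0.6 of those expected. A gene had a site when a site centre lay within 1 kb of any of its TSSs, and an island gene when an island did. The site and the island need not be at the same TSS. Bins were 5 Mb by gene start or site centre. Classes were quintiles over all autosomes. Wilson 95% intervals treat genes as independent and cover counting error only, although neighbouring genes can share a site, and where no gene had a site the limit given is 3 genes of the total. No test was run, because the comparisons use the positions by which the sites were chosen. Genes named were those of the lists, of the widest sites, of the bins with the largest shortfall, the highest share and the most sites, and of the longest runs, and the distal sites farthest from a TSS, in the densest bins or with a motif. Some genes of these lists and bins are not reported here by name. Analyses used Python 3.11.15, NumPy 2.4.6, pandas 2.3.3, SciPy 1.17.1 and pysam 0.24.0, and the functions were tested on simulated data.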

Additional observations from a re-analysis of the deposited data

How the results depend on the processing

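Over 6 results and 41 alternatives, 29 values stayed within the interval of the reported value, or, for the number of bins, within 1.5 times the reported count. A change of sign was possible only for the difference from the other autosomes, which stayed negative in every alternative. The share of CpG island genes with a site was 14.3% with islands of at least 500 bp. Its difference from the other autosomes, -8.72 points (interval -10.5 to -6.70), was -6.52 without the 3 bins of largest deficit, and, in comparisons added after seeing the data, -5.58 against the expectation from GC classes and -3.65 against that from GC and CpG classes. Bins of 10 Mb put 12 of 15 below the reference, a smaller count over fewer bins. The promoter share of sites was 47.2% with a window of 500 bp, 67.1% with 3 kb and 62.9% for sites wider than the minimum. Distal sites per Mb were 0.914 beyond 1 kb, 0.392 beyond 10 kb and 0.419 for wider sites, and the median width of promoter sites was 322 bp with sites within 1 kb merged. The list holds no values per library, so leaving out a replicate, a stricter peak threshold and the read depth behind a site could not be examined. No paired analysis was possible because the result comes from no test and the columns carry no replicate. Mappability, which can differ in tandem families, was not modelled.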
